A study of Homo sapiens with 12 samples.

Results

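The transcriptome of Du145-DtxR, a Du145 line selected for resistance to docetaxel, was compared with that of the parental cells, Du145-P. The comparison took the 2 libraries of Du145-DtxR and the 2 of Du145-P, 4 of the 12 RNA libraries of the study. Du145 is an established prostate carcinoma line. The resistant cells came from repeated exposures of 72 h to docetaxel, at doses that started at 1 nM and were doubled up to 125 nM, with recovery and a passage between doses, and their labels give no other genotype than this resistance. Parental cells were passaged beside them without the drug, and both were grown in the same serum-containing medium. Du145-CbzR, selected in the same way with cabazitaxel, and Du145-DtxR cells transfected with a control siRNA (siControl), given in another table, are used only for values beside these. The study calls its libraries biological replicates, but the sources do not say whether those of a line came from separate cultures or selections. The p-values therefore measure the spread between these libraries, which may be technical.

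Docetaxel binds beta-tubulin and holds microtubules in their assembled state, so that cells stall in mitosis. Cells that survive it can pump the drug out, change the tubulins or the proteins around them, or change the pathways that couple mitotic damage to death. The ER chaperones, the ATF4 response, NF-kB targets and all ABC transporter genes were set aside here, and the genes and functions beyond them are described.

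Total estimated counts were 27512422 and 27807703 in Du145-DtxR, against 30503511 and 30189073 in Du145-P. Levels are given in scaled counts relative to the library total (CPM, the unit of the edgeR scaling), which compare samples for 1 gene but not genes with each other, since they are not divided by length. Of 18218 genes tested, 1206 were higher and 2507 lower in Du145-DtxR at an adjusted p under 0.05 and a log2 fold change past 1 or -1, or 6.62% and 13.8% of the genes tested. With no limit on the fold, 31.1% were higher and 32.0% lower, and the gene lists below are read against those shares. In 80.9% of genes the 2 libraries of Du145-DtxR did not overlap the 2 of Du145-P. The excess of lower genes lay among weakly expressed ones, as 26.6% of genes under 1 CPM were lower and 9.8% higher, and 23.1% lower and 7.77% higher from 1 to 10 CPM, whereas at 100 CPM and above 1.98% were lower and 6.16% higher. Epithelial markers fixed for Du145 summed to 951 and 908 CPM in Du145-DtxR, against 678 and 720 CPM in Du145-P. They did not move together, as KRT7, KRT18 and KRT19 were higher, KRT8 and CDH1 lower, and EPCAM did not pass. Leukocyte and endothelial markers summed to at most 0.398 CPM in each of the 4 libraries, and KLK2, KLK3 and TMPRSS2 had at most 1 count in any of them.

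A large share of these differences was smaller or absent in the siControl libraries of the resistant line. On a scale of log2(CPM + 0.5), 474 of the 1206 higher genes, 39.3%, and 1146 of the 2507 lower genes, 45.7%, had siControl levels nearer to Du145-P than to Du145-DtxR. So did 96 of the 264 genes named by rule, 36 of them at the level of Du145-P or beyond it. The tables were normalized separately and no test was made between them, and transfection, culture and sequencing cannot be told apart, so siControl levels are given, with no test, beside named genes that were nearer to Du145-P.

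The clearest differences were genes that vanished from Du145-DtxR. At 5 CPM or more in Du145-P and 0 counts in both Du145-DtxR libraries there were 12 genes, against 1 gene, the potassium channel regulator ABCC9, in the other direction. ABCC9 is named after its value was seen, and it averaged 8.06 CPM in Du145-DtxR, at least 164-fold higher than in Du145-P, but 0.293 to 0.531 CPM in the siControl libraries. With a limit of 1 CPM these numbers were 61 and 7. The lost genes serve unrelated functions. Besides BCHE, SH3BGRL, DAPK1, S1PR3 and COL5A1 they were ADAMTS15, a matrix protease, SLC6A11, a GABA transporter, TSNARE1, a vesicle fusion protein, CA12, a membrane carbonic anhydrase, NUDT7, a peroxisomal coenzyme A hydrolase, KCNQ1, a voltage-gated potassium channel, and 1 long noncoding RNA without a symbol.

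In counts, SLC6A11 had 0 and 0 in Du145-DtxR, against 272 and 267 in Du145-P, at least 160-fold lower. NUDT7 had 0 and 0 counts, against 169 and 186 in Du145-P, at least 105-fold lower. KCNQ1 had 0 and 0 counts, against 187 and 164 in Du145-P, at least 104-fold lower. These bounds set Du145-DtxR at a floor of 3 counts over both libraries and cover counting error only. Of the 12 genes, only BCHE was also at 0 counts in Du145-CbzR, while the other 11 averaged 1 CPM or more there, the long noncoding RNA only through 1 library, at 2.92 CPM with no count in the other. In the 3 siControl libraries of Du145-DtxR, 10 of the 12 averaged under 0.1 CPM, and 5 had no count. ADAMTS15 was at 0.936, 1.48 and 1.41 CPM in those libraries and KCNQ1 at 0.624, 0.65 and 0.704 CPM, so these genes were low but not absent in every culture of the line. Of the wider set of 61 genes, 44 averaged under 0.1 CPM in the siControl libraries and 6 were at 1 CPM or more.

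Promoters of lost genes were read for their CpG dinucleotides. RefSeq promoter windows on GRCh38.p14, from 250 bases before to 50 bases after a start site, were found for 8 of the 12 genes, and 6 of these had at least 20 CpG dinucleotides at a start site, as did 76.0% of the 12249 tested genes with a window. The windows of BCHE, SH3BGRL and DAPK1 are shown because these are the lost genes with the highest levels in Du145-P and because they differ widely in CpG content. Capitals mark CpG dinucleotides. BCHE holds 2 of them at chr3:165837374-165837673 on the minus strand, SH3BGRL 12 at chrX:81201852-81202151 on the plus strand, and DAPK1 37 at chr9:87497617-87497916 on the plus strand. DNA methylation was not measured in these files.
BCHE: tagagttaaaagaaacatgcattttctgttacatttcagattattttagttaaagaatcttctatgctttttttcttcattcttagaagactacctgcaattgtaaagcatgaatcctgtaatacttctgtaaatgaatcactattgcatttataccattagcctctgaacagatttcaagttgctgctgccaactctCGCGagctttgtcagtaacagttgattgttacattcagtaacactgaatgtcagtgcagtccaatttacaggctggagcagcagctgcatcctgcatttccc
SH3BGRL: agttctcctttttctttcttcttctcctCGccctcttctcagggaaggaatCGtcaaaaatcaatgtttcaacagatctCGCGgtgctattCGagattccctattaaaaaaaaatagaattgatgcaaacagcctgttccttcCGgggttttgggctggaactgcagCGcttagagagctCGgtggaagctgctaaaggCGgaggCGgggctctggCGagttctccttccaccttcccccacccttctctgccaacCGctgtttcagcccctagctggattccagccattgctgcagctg
DAPK1: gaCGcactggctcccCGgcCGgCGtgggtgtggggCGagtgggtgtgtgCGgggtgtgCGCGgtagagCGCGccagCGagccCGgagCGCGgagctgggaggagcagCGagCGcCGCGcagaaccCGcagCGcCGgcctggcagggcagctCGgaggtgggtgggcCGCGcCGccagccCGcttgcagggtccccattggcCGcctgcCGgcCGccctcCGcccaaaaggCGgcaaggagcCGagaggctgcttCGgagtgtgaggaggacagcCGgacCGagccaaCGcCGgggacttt

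Beyond the genes at 0, the genes with the largest falls included secreted factors and genes of differentiation. NDRG1, a gene induced by hypoxia and differentiation, was at 0.809 and 0.554 CPM in Du145-DtxR, against 142 and 147 CPM in Du145-P. Its log2 fold change of -7.72 (SE 0.10) had an adjusted p of 5.42e-13, and it was low in the siControl libraries too, at 0.118 to 0.437 CPM. The bone morphogenetic protein genes BMP5 and BMP7 fell together. BMP5 was at 0.147 and 0.111 CPM in Du145-DtxR, against 21.9 and 18.7 CPM in Du145-P, and BMP7 at 0 and 0.0369 CPM, against 13.8 and 14.6 CPM. In Du145-CbzR, BMP5 was higher than in either, at 232 and 225 CPM, and BMP7 was at 0.0325 and 0.13 CPM. TP53I11 was low in only some cultures of the line, at 0.257 and 0.222 CPM in Du145-DtxR, against 36.6 and 41.5 CPM in Du145-P, but at 28.1 to 32.6 CPM in the siControl libraries.

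Among the largest rises, several encode cell surface proteins. ADGRV1, a very large adhesion G protein-coupled receptor, was at 23 and 24.3 CPM in Du145-DtxR, against 0.325 and 0.464 CPM in Du145-P (log2 fold change 5.89, SE 0.19, adjusted p = 2.84e-10). EFNB2, the ephrin-B2 ligand of Eph receptors, was at 6.25 and 7.09 CPM, against 0.39 and 0.332 CPM in Du145-P. Between the resistant lines 63.0% of all genes passed the test, and both of these did, with higher levels in Du145-DtxR than in Du145-CbzR. Secreted products rose as well. TNFRSF6B, the soluble decoy receptor that binds FAS ligand, was at 82.7 and 56.2 CPM in Du145-DtxR, against 5.13 and 6.83 CPM in Du145-P, and EDN1, endothelin-1, at 22.5 and 20.2 CPM, against 1.59 and 1.76 CPM, with siControl levels of 5.02 to 5.45 CPM. The long RNA MIR100HG, which hosts let-7a-2, miR-100 and miR-125b-1, was at 29.7 and 23.9 CPM in Du145-DtxR, against 2.31 and 1.73 CPM in Du145-P, and ARMCX2, an X-linked armadillo repeat gene, at 41.3 and 42.7 CPM, against 3.41 and 2.99 CPM.

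**Figure D1:**
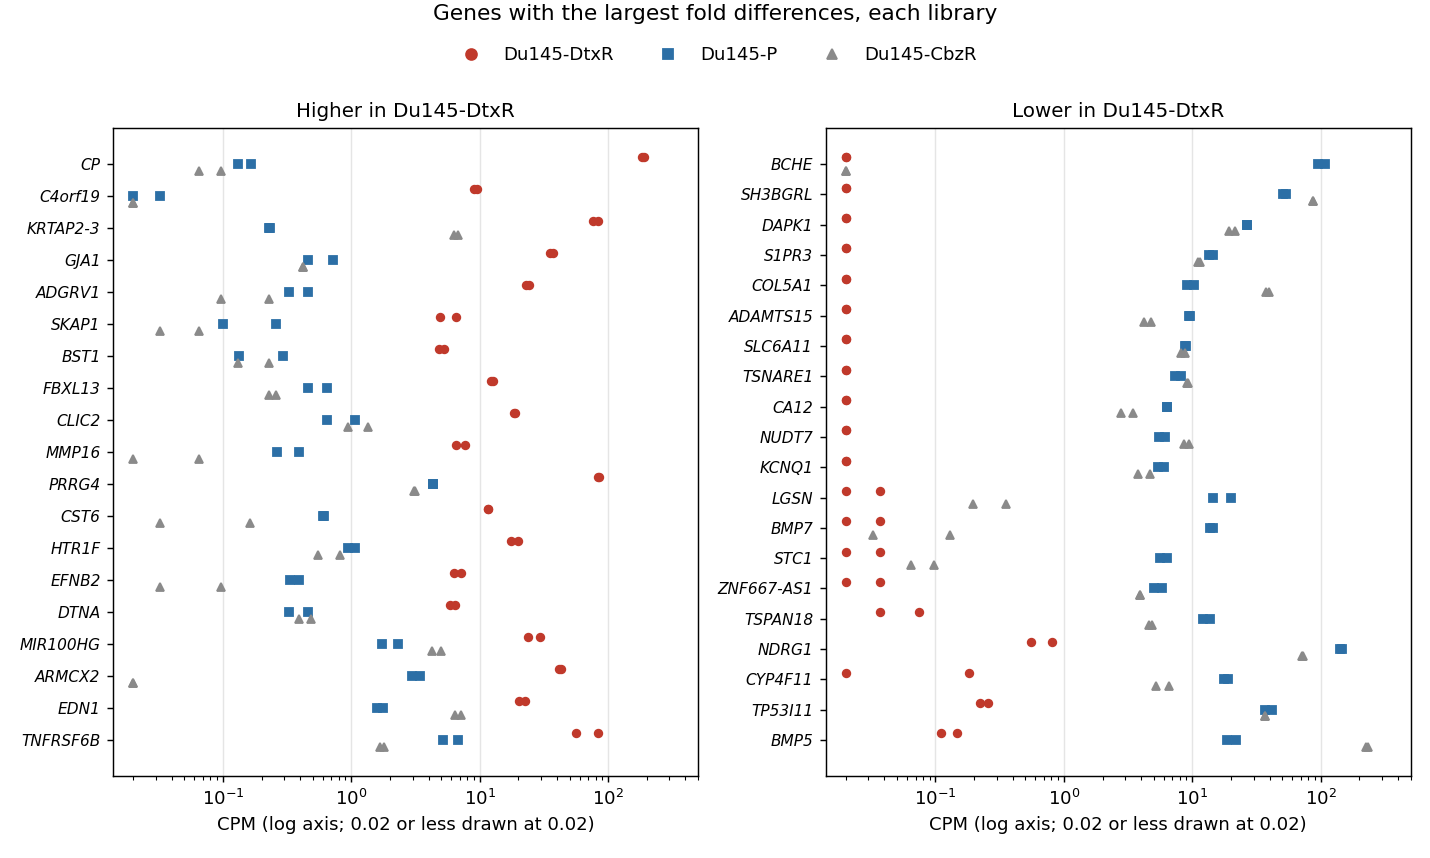
Levels in CPM (log axis) of 19 of the 20 genes with the largest fold increase and the 20 with the largest fold decrease in Du145-DtxR, each symbol 1 library (circles Du145-DtxR, squares Du145-P, triangles Du145-CbzR, 2 libraries each). The Du145-DtxR and Du145-P symbols do not overlap for any gene, and of the 11 genes at 0 counts in both Du145-DtxR libraries only BCHE is also at 0 in Du145-CbzR.

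Of the 20 genes with the largest rises, ABC transporters such as ABCC9 not being among them, 15 averaged 5 CPM or more in the siControl libraries and 19 at least 1 CPM. The exception was DTNA, dystrobrevin alpha, at 0.562 to 0.827 CPM there, against 6.43 and 5.84 CPM in the untransfected Du145-DtxR libraries. PRRG4, a membrane protein with a Gla domain, was at 11.2 to 14.9 CPM in the siControl libraries, against 84.4 and 82.8 CPM in Du145-DtxR and 4.29 and 4.31 CPM in Du145-P. Of the 20 genes with the largest falls, 13 averaged under 0.1 CPM in the siControl libraries and 3 were at 1 CPM or more, namely TP53I11, ADAMTS15 and BMP7.

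Genes of adhesion and of the epithelial state did not move as a block. Cadherin and catenin junctions hold epithelial cells to each other, and their loss with a gain of vimentin is the textbook sign of a mesenchymal shift. Of 26 tested genes of epithelial identity and junctions, 7 were higher and 14 lower (median log2 fold change -0.38, against -0.02 over all genes). CDH1, E-cadherin, was at 1.65 and 1.15 CPM in Du145-DtxR, against 38.9 and 34.8 CPM in Du145-P. JUP, plakoglobin, which ties cadherins and desmosomes to the cytoskeleton, was at 19.7 and 19.4 CPM, against 285 and 304 CPM in Du145-P (log2 fold change -3.91, SE 0.06, adjusted p = 1.46e-12), with siControl levels of 72.3 to 83 CPM. Other epithelial genes rose. CLDN1, a tight junction claudin, was at 204 and 206 CPM in Du145-DtxR, against 48.2 and 48.9 CPM in Du145-P, and the simple keratin KRT19 at 182 and 173 CPM, against 32.4 and 34 CPM. CLDN1 was at 34.4 to 38.3 CPM in the siControl libraries, below Du145-P, and KRT19 was at 105 to 120 CPM, above it.

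Mesenchymal genes were as divided, with 6 of 15 higher and 6 lower (median -0.03). VIM, vimentin, was at 1835 and 1930 CPM in Du145-DtxR, against 910 and 943 CPM in Du145-P, and TNC, the matrix protein tenascin-C, at 130 and 135 CPM, against 16.6 and 16.1 CPM. S100A4, a calcium-binding protein of motile cells, went the other way, at 2.57 and 2.59 CPM in Du145-DtxR, against 37.4 and 38.1 CPM in Du145-P. The hyaluronan receptor CD44 was at 764 and 780 CPM, against 238 and 236 CPM in Du145-P. The rise of TNC was absent from the siControl libraries, where it was at 7.74 to 10.5 CPM. The gap junction list held 4 higher and 2 lower genes of 9, led by GJA1 with PANX1 and GJC1 on the same side. PANX1 was at 30.6 to 37.1 and GJC1 at 89.3 to 107 CPM in the siControl libraries, on average no higher than in Du145-P.

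Lists of matrix genes held more lower than higher genes. The basement membrane is a sheet of laminin and collagen IV networks joined by nidogen. Of 15 laminin and basement membrane genes 10 were lower and 3 higher (median -1.17), of 25 collagens 16 lower and 5 higher (median -1.04), and of 17 matrix crosslinking and collagen-modifying genes 12 lower and 2 higher (median -0.59). NID1, nidogen-1, was at 6.4 and 5.36 CPM in Du145-DtxR, against 89.8 and 86.2 CPM in Du145-P (log2 fold change -3.90, SE 0.08, adjusted p = 1.03e-11). LAMB1 was at 32.7 and 31.5 CPM, against 111 and 107 CPM in Du145-P, and LAMA3 at 10.1 and 9.68 CPM, against 46.1 and 44 CPM. The collagen IV chains COL4A3 and COL4A4, which are transcribed from neighbouring start sites, fell together, with COL4A4 at 1.65 and 1.29 CPM in Du145-DtxR, against 52.3 and 49.6 CPM in Du145-P.

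The exceptions were few. Among the laminins and their partners the proteoglycans HSPG2 and AGRN were higher, with HSPG2, perlecan, at 294 and 261 CPM in Du145-DtxR, against 170 and 184 CPM in Du145-P. LOX, the lysyl oxidase that crosslinks collagen and elastin, was at 51 and 43.2 CPM, against 7.86 and 6.9 CPM in Du145-P, and COL12A1, a fibril-associated collagen, at 142 and 150 CPM, against 50.6 and 51.6 CPM. LOX was at 13.7 to 18.4 and COL12A1 at 44.8 to 65.8 CPM in the siControl libraries. On the log2(CPM + 0.5) scale the median difference from Du145-P was -0.59 in Du145-DtxR and 0.30 in the siControl libraries for the crosslinking list, -1.13 and -0.58 for the laminins, and -0.88 and -0.32 for the collagens. Fibroblast markers, carried in Du145-P mainly by COL1A1 and COL3A1, summed to 3.31 and 3.73 CPM in Du145-DtxR, against 22.5 and 24.1 CPM in Du145-P. COL1A2 went the other way on few counts, at 1.07 and 0.517 CPM in Du145-DtxR, against 0.065 and 0.0995 CPM in Du145-P. The fibroblast-defining DCN and LUM had at most 1 count in any of these libraries.

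Integrins, the receptors for this matrix, were lower in 10 of 17 and higher in 4 (median -0.44). The 2 called genes with the smallest p-values were nonetheless higher, ITGA2, the collagen receptor subunit, at 251 and 251 CPM in Du145-DtxR, against 56.8 and 55.5 CPM in Du145-P, and ITGA6, the laminin receptor subunit, at 621 and 598 CPM, against 252 and 245 CPM. ITGA5, the fibronectin receptor subunit, was lower at 52.5 and 47.6 CPM, against 113 and 119 CPM in Du145-P. Proteases were split, with 9 of 23 metalloproteinases and inhibitors higher and 12 lower. ADAM12, a membrane metalloproteinase, was at 49.8 and 55.4 CPM in Du145-DtxR, against 6.2 and 6.44 CPM in Du145-P, and TIMP2, a metalloproteinase inhibitor, at 217 and 216 CPM, against 590 and 605 CPM. Urokinase, PLAU, was at 358 and 347 CPM, against 187 and 197 CPM in Du145-P. ITGA5 was at 195 to 212, ITGA6 at 282 to 374 and TIMP2 at 542 to 596 CPM in the siControl libraries, so that ITGA5 was above Du145-P and the others were nearer to it than to Du145-DtxR.

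Growth factor receptors and ligands moved in both directions. ERBB receptors are receptor tyrosine kinases driven by EGF-like ligands, and their signal reaches AP-1 transcription factors through ERK. Of 17 ERBB genes, 7 were higher and 7 lower. HBEGF, a membrane-tethered ligand, was at 80.5 and 76.2 CPM in Du145-DtxR, against 24.8 and 26.3 CPM in Du145-P (log2 fold change 1.62, SE 0.06, adjusted p = 1.29e-09). The receptor ERBB2 was at 43.9 and 42.7 CPM, against 115 and 121 CPM in Du145-P, the ligand EGF at 1.47 and 1.44 CPM, against 14.1 and 12.1 CPM, and LRIG1, which promotes ERBB receptor turnover, at 8.78 and 9.31 CPM, against 34.6 and 31.6 CPM. Among other receptor tyrosine kinases and their ligands 15 of 31 were higher and 13 lower. AXL, the GAS6 receptor linked to drug tolerance, was at 939 and 917 CPM in Du145-DtxR, against 374 and 393 CPM in Du145-P, and ROR1, a WNT5A receptor, at 32.5 and 35.5 CPM, against 6.98 and 7.9 CPM. PTK7, a pseudokinase of planar cell polarity, was at 7.61 and 6.43 CPM, against 89.7 and 92.9 CPM in Du145-P, and IGF1R at 126 and 119 CPM, against 265 and 260 CPM. For PTK7 the siControl libraries were at 48.7 to 58.5 CPM.

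Of 29 ERK feedback and AP-1 genes, 17 were higher and 5 lower (median 0.45). FOSL1, the AP-1 subunit FRA-1 that stays high under sustained ERK activity, was at 222 and 230 CPM in Du145-DtxR, against 22.9 and 27.1 CPM in Du145-P (log2 fold change 3.18, SE 0.09, adjusted p = 7.38e-11). JUN, its dimer partner, was at 115 and 107 CPM, against 21.1 and 21.4 CPM in Du145-P. FOS and the ERK phosphatase gene DUSP4 moved the opposite way, with FOS at 3.53 and 3.21 CPM in Du145-DtxR, against 18.2 and 20.3 CPM in Du145-P, and DUSP4 at 2.13 and 1.92 CPM, against 18.4 and 18.8 CPM. The siControl libraries did not show the fall of FOS, which was at 18.5 to 23.4 CPM, and DUSP4 was at 7.12 to 8.03 CPM. In a list of YAP and TEAD genes, which respond to cell tension and spreading, 21 of 29 were higher and 5 lower (median 0.42), but the list also holds the factors and their regulators, and YAP1, WWTR1, TEAD1, TEAD2 and LATS1 account for 5 of the 21. Apart from ANKRD1 and CCN2, the members with the smallest p-values were the GTPase-activating protein DLC1, at 167 and 164 CPM in Du145-DtxR, against 28 and 26 CPM in Du145-P, and the stress sensor GADD45A, at 65.2 and 62.4 CPM, against 15.2 and 16.2 CPM.

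Lists of morphogen pathways held more lower than higher genes. WNT, Notch, BMP and the axon guidance ligands set cell fate and position in embryos and are reused in epithelia. Of 44 WNT genes 27 were lower and 10 higher (median -0.69), of 31 Notch genes 19 lower and 4 higher (median -0.90), of 48 TGF-beta and BMP genes 28 lower and 13 higher (median -0.43), and of 36 semaphorins, plexins, netrins and slits 25 lower and 7 higher (median -0.59). SFRP1, a secreted WNT antagonist, was at 1.73 and 2 CPM in Du145-DtxR, against 30.3 and 32.2 CPM in Du145-P, and NKD1, a feedback inhibitor that WNT signaling induces, at 1.43 and 1.44 CPM, against 18.7 and 17.9 CPM. DKK1, another secreted antagonist, was higher, at 112 and 121 CPM, against 46.1 and 46.7 CPM in Du145-P.

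The Notch receptors were divided. NOTCH3 was at 19.1 and 14.9 CPM in Du145-DtxR, against 88.1 and 91.1 CPM in Du145-P, and NOTCH1 at 7.65 and 6.91 CPM, against 24.4 and 25 CPM. NOTCH2 was higher, at 209 and 217 CPM, against 125 and 133 CPM in Du145-P, with RBPJ, the DNA-binding partner of all Notch receptors, at 161 and 162 CPM, against 93.1 and 91.4 CPM. NOTCH3 was at 75.9 to 97.7, NOTCH1 at 23.7 to 27.9 and RBPJ at 53.6 to 65.3 CPM in the siControl libraries, so that RBPJ was below Du145-P and both receptors were close to it. In the TGF-beta group LTBP1, which anchors latent TGF-beta in the matrix, was at 7.87 and 6.39 CPM in Du145-DtxR, against 84 and 83 CPM in Du145-P, and FSTL1, a secreted BMP antagonist, at 2.76 and 3.03 CPM, against 28.8 and 31.1 CPM. SEMA6B, a transmembrane semaphorin, was at 14 and 12.4 CPM, against 57.5 and 59.2 CPM in Du145-P. Among 15 IGF-binding and insulin signaling genes 9 were lower and 6 higher, and 8 of the 9 were past the 2-fold limit. IGFBP4, an inhibitor of IGF action, was at 8.86 and 7.24 CPM in Du145-DtxR, against 130 and 125 CPM in Du145-P, and IGF2 at 0.184 and 0.259 CPM, against 4.61 and 5.08 CPM. SEMA6B was at 69.8 to 78.2, IGF2 at 4.43 to 8.5, FSTL1 at 16.8 to 18.7 and NKD1 at 9.61 to 13.1 CPM in the siControl libraries. On the log2(CPM + 0.5) scale the median difference from Du145-P was -0.54 in Du145-DtxR and 0.35 in the siControl libraries for the Notch list, -0.66 and -0.11 for the WNT list, and -0.58 and -0.09 for the semaphorin list, beside -0.02 and -0.14 over all genes.

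**Figure D2:**
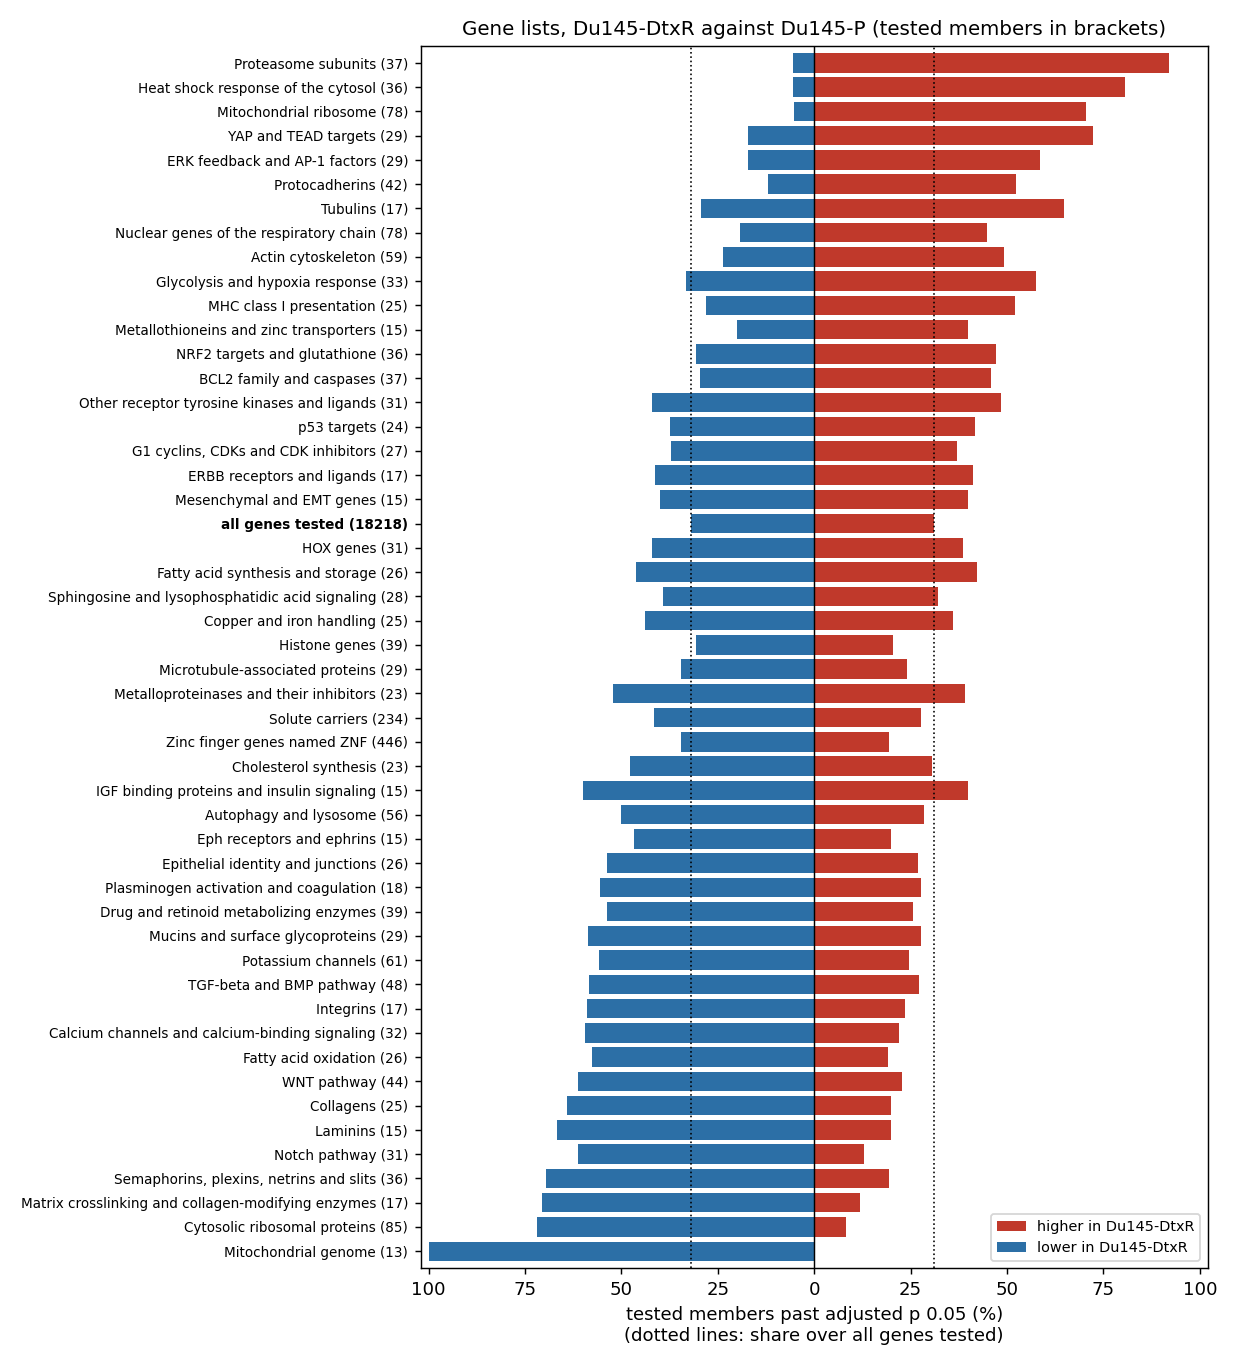
Share of the tested members of each of the 49 gene lists with at least 13 tested members that were higher (right, red) or lower (left, blue) in Du145-DtxR than in Du145-P at an adjusted p under 0.05, with the number tested in brackets. Dotted lines mark the 31.1% higher and 32.0% lower over all 18218 genes, and the proteasome stands at the top and the mitochondrial genome at the bottom.

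Lists of protein degradation and folding held mostly higher genes. The proteasome degrades ubiquitin-tagged proteins, and its subunit genes are induced together when degradation falls short. Of 37 subunit genes tested 34 were higher, 2 lower and 1 did not pass (median 0.53). PSMD1, a scaffold of the regulatory particle, was at 195 and 209 CPM in Du145-DtxR, against 115 and 114 CPM in Du145-P (log2 fold change 0.82, SE 0.05, adjusted p = 4.73e-08), and PSMD14, the deubiquitinase of the lid, at 92.4 and 96.8 CPM, against 54.8 and 54 CPM. PSMD12, another lid subunit, was at 167 and 177 CPM in Du145-DtxR, against 99.9 and 95 CPM in Du145-P. The 2 lower genes encode peptidases. PSMB5, the chymotrypsin-like subunit that bortezomib binds, was at 55.1 and 55.9 CPM, against 84.1 and 87.5 CPM in Du145-P (log2 fold change -0.63, SE 0.05, adjusted p = 9.24e-07). PSMB9, a subunit of the immunoproteasome, was at 3.6 and 3.47 CPM, against 4.09 and 6.24 CPM in Du145-P, a difference with an adjusted p of 0.0364 in edgeR and from 0.00509 to 0.385 over the alternatives, the highest without Du145-P replicate 2. PSMD12 was at 67.8 to 84.8, PSMD14 at 50.3 to 55.3, PSMD1 at 142 to 161 and PSMB9 at 7.39 to 8.36 CPM in the siControl libraries, and the median of the list over Du145-P was 0.52 in Du145-DtxR and 0.08 in the siControl libraries on the log2(CPM + 0.5) scale.

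Of 36 genes of the cytosolic heat shock response 29 were higher and 2 lower, BAG1 and HSPA2 (median 0.70). HSP90AB1, the constitutive HSP90, was at 2898 and 3127 CPM in Du145-DtxR, against 1911 and 1832 CPM in Du145-P. HSP90AA1, the inducible HSP90, was at 1848 and 2005 CPM, against 1001 and 996 CPM in Du145-P, and the stress-induced HSPA1A at 15 and 17.4 CPM, against 2.44 and 2.65 CPM. TCP1, a subunit of the chaperonin that folds actin and tubulin, was at 303 and 328 CPM in Du145-DtxR, against 162 and 154 CPM in Du145-P. HSPA1A shares nearly all of its sequence with HSPA1B, so the split of reads between the copies is uncertain, and HSPA1B, read for that reason after its value was seen, was at 21.8 and 23.6 CPM in Du145-DtxR, against 19.7 and 19.4 CPM in Du145-P. HSP90AA1 was at 996 to 1222, HSP90AB1 at 2128 to 2317 and TCP1 at 199 to 220 CPM in the siControl libraries, and the median of the list over Du145-P was 0.69 in Du145-DtxR and 0.50 in the siControl libraries on the same scale.

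Promoters of these genes were searched for the letters bound by heat shock factors. The motif GAANNTTC, a pair of inverted units of the heat shock element that reads the same on both strands, was found in the window of 19 of the 33 list members with a RefSeq window, 57.6%, and of 6.69% of all 12249 genes. Of the 19 genes with the motif 16 were higher, and of the 14 without it 10 were higher. For the proteasome the letters TGACNNNGC of the antioxidant response element, searched on both strands, were found for 10 of 32 members, 31.2%, against 19.3% of all genes, and 8 of these 10 and 21 of the 22 others were higher. The windows of HSPA1A at chr6:31815293-31815592 on the plus strand, TCP1 at chr6:159789553-159789852 on the minus strand and PSMD12 at chr17:67366528-67366827 on the minus strand show the matches of named members, with the motif in capitals. A match is a description of the letters, and binding was not measured in these files.
HSPA1A: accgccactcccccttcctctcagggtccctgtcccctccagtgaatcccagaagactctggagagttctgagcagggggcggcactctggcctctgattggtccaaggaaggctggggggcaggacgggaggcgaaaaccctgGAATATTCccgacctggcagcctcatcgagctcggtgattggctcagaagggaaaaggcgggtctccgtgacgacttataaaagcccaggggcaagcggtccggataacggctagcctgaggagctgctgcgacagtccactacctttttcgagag
TCP1: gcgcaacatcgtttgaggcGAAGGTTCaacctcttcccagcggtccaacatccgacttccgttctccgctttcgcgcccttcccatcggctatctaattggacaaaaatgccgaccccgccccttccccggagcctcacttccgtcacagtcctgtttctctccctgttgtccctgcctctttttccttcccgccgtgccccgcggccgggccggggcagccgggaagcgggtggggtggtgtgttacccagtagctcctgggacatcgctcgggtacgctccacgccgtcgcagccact
PSMD12: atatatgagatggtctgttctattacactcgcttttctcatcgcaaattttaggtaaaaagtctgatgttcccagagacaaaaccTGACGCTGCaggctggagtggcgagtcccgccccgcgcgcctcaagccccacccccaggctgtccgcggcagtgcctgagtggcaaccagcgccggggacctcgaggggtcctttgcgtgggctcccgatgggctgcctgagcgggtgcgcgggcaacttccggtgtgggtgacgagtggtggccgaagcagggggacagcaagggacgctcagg

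Ribosomal genes split by compartment. Of 78 genes of the mitochondrial ribosome 55 were higher and 4 lower (median 0.38), whereas of 85 cytosolic ribosomal protein genes 61 were lower and 7 higher (median -0.37). MRPL3 was at 140 and 154 CPM in Du145-DtxR, against 84.9 and 84.6 CPM in Du145-P. RPLP1, an acidic stalk protein of the cytosolic ribosome, was at 544 and 545 CPM, against 964 and 997 CPM in Du145-P (log2 fold change -0.85, SE 0.05, adjusted p = 2.19e-08). Among the genes with the largest decreases in CPM were EEF1A1 and EEF2. EEF1A1, which delivers aminoacyl-tRNA, was at 5729 and 5612 CPM in Du145-DtxR, against 8710 and 8652 CPM in Du145-P, and EEF2, the translocase, was at 2537 and 2350 CPM, against 3500 and 3654 CPM. TPT1, a translationally controlled growth protein, was at 845 and 857 CPM, against 1505 and 1462 CPM in Du145-P. EEF2 was at 3332 to 3609 CPM in the siControl libraries, and the median of the cytosolic ribosomal list over Du145-P was -0.37 in Du145-DtxR and -0.51 in the siControl libraries on the log2(CPM + 0.5) scale.

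All 13 protein-coding genes of the mitochondrial genome were lower (median -0.45), from -1.06 for MT-CO1 to -0.26. MT-CO1, the catalytic subunit of cytochrome c oxidase, was at 12972 and 14312 CPM in Du145-DtxR, against 27748 and 29086 CPM in Du145-P. In the siControl libraries it was at 32876 to 39096 CPM, above Du145-P. Mitochondrial transcripts made up 8.91% and 9.48% of all counts in Du145-DtxR, against 14.31% and 15.35% in Du145-P. In the siControl libraries they made up 16.6%, 13.47% and 13.87%. The median of the list over Du145-P was -0.45 in Du145-DtxR and -0.12 in the siControl libraries on the log2(CPM + 0.5) scale, beside -0.02 and -0.14 over all genes. Nuclear genes of the respiratory chain were higher in 35 of 78 and lower in 15 (median 0.10), none of them past the 2-fold limit.

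**Figure D3:**
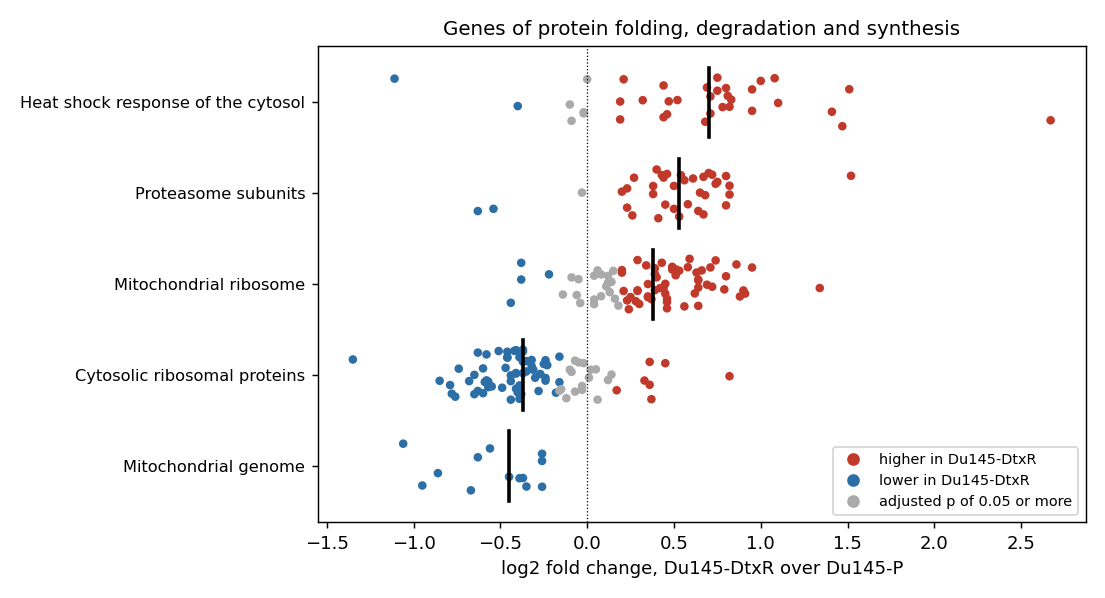
Log2 fold changes of Du145-DtxR over Du145-P for each tested gene of 5 lists, with higher genes in red, lower genes in blue, genes past no threshold in grey, the list median as a black bar and points spread vertically for legibility. The medians run from 0.70 for the heat shock response to -0.45 for the mitochondrial genome.

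Docetaxel acts on microtubules, and tubulin genes were mostly higher. Of 17 tubulin genes 11 were higher and 5 lower (median 0.43). TUBB, the main beta-tubulin, was at 1683 and 1757 CPM in Du145-DtxR, against 852 and 913 CPM in Du145-P (log2 fold change 0.96, SE 0.05, adjusted p = 1.44e-08). TUBB6 was at 177 and 178 CPM, against 96.8 and 102 CPM in Du145-P, and TUBB4B at 468 and 464 CPM, against 267 and 277 CPM. TUBA1A, an alpha-tubulin, was lower at 41.2 and 45.4 CPM in Du145-DtxR, against 90.2 and 91.3 CPM in Du145-P. TUBA1A was at 63.1 to 74.7 CPM in the siControl libraries. Between Du145-DtxR and Du145-CbzR, TUBB and TUBB6 did not pass the test, with log2 differences of -0.09 (SE 0.05, adjusted p = 0.127) and 0.08 (SE 0.05, adjusted p = 0.168). Tubulin genes are close paralogs, so reads may be divided between them with error.

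Proteins that bind microtubules were divided, 7 of 29 higher and 10 lower (median -0.05), and none was higher by more than 2-fold. MAPT, the tau protein that stabilizes microtubules, was at 27.1 and 25.2 CPM in Du145-DtxR, against 56.9 and 58.5 CPM in Du145-P. Its siControl levels, 57.9 to 60.7 CPM, were close to those of Du145-P. MAP1A was at 2.83 and 2.88 CPM, against 10.5 and 11 CPM in Du145-P, with siControl levels of 5.67 to 6.57 CPM. In the list of actin cytoskeleton genes 29 of 59 were higher and 14 lower (median 0.14). ARHGEF2, the guanine nucleotide exchange factor that is released from microtubules, was at 397 and 366 CPM in Du145-DtxR, against 124 and 129 CPM in Du145-P, PXN, the focal adhesion adaptor paxillin, at 568 and 545 CPM, against 220 and 235 CPM, and RHOV, an atypical small GTPase, at 2.98 and 2.07 CPM, against 42.3 and 42.4 CPM.

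Genes that decide survival and cell cycle entry moved in both directions. BCL2 family proteins guard or breach the mitochondrial membrane. Of 37 BCL2 family and caspase genes 17 were higher and 11 lower (median 0.15). The guardians BCL2L1, which encodes BCL-xL, and MCL1 were higher, BCL2L1 at 253 and 233 CPM in Du145-DtxR, against 90.2 and 98.5 CPM in Du145-P (log2 fold change 1.36, SE 0.06, adjusted p = 3.68e-09), and MCL1 at 938 and 912 CPM, against 486 and 460 CPM. BMF, a pro-apoptotic BH3-only protein held on the cytoskeleton, was at 2.61 and 3.03 CPM, against 24.9 and 27.7 CPM in Du145-P. The death receptor genes FAS and TNFRSF10B were higher, with FAS at 39.1 and 43 CPM in Du145-DtxR, against 6.24 and 5.81 CPM in Du145-P, and TNFRSF10B, a TRAIL receptor, at 247 and 238 CPM, against 120 and 116 CPM. Both are also p53 targets, a list in which 10 of 24 were higher and 9 lower. Of 27 genes in a list of G1 cyclins, CDKs and CDK inhibitors, which also holds RB family and E2F genes, 10 were higher and 10 lower (median -0.05). CDK6 was at 47.1 and 51.1 CPM in Du145-DtxR, against 11.6 and 11.9 CPM in Du145-P, CCND1, its cyclin D1 partner, at 547 and 531 CPM, against 248 and 248 CPM, and the CDK inhibitor CDKN1C at 1.07 and 0.702 CPM, against 7.47 and 8.96 CPM. MCL1 was at 490 to 515, BMF at 7.49 to 10.5, CDK6 at 20.3 to 27.3 and CDKN1C at 2.93 to 3.17 CPM in the siControl libraries.

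Metabolic genes moved in both directions. Of 33 genes of glycolysis and the hypoxia response 19 were higher and 11 lower (median 0.42). HK2, the hexokinase that starts glycolysis, was at 55.4 and 53.9 CPM in Du145-DtxR, against 23.1 and 23.2 CPM in Du145-P. The high-affinity glucose transporter SLC2A3 was at 0.919 and 0.517 CPM, against 61.6 and 57.7 CPM in Du145-P (log2 fold change -6.37, SE 0.13, adjusted p = 8.80e-12), and it was at 93.5 CPM on average in Du145-CbzR. SLC2A3, NDRG1 and CA12 had the largest falls of this list. NAMPT, which makes the NAD precursor nicotinamide mononucleotide, was at 891 and 829 CPM in Du145-DtxR, against 211 and 189 CPM in Du145-P, and NNMT, which methylates nicotinamide, at 201 and 190 CPM, against 31.9 and 34.7 CPM. UAP1, which makes UDP-N-acetylglucosamine for glycosylation, was at 800 and 762 CPM, against 82.6 and 78.7 CPM in Du145-P. NAMPT was at 221 to 265 CPM, NNMT at 65.2 to 87 CPM and UAP1 at 225 to 234 CPM in the siControl libraries.

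Ferritin transcripts were lower. FTH1, the ferritin heavy chain, was at 2149 and 2328 CPM in Du145-DtxR, against 3746 and 3917 CPM in Du145-P, and FTL, the light chain, at 870 and 888 CPM, against 1465 and 1720 CPM. FTH1 was at 2558 to 3148 and FTL at 1195 to 1570 CPM in the siControl libraries. ATP7A, a copper pump, was at 2.39 and 3.62 CPM, against 18.2 and 15.4 CPM in Du145-P. Of the 25 copper and iron genes 9 were higher and 11 lower. Fatty acid oxidation genes were lower in 15 of 26 and higher in 5 (median -0.18), including PPARA, the transcription factor that induces them, at 16.1 and 14.7 CPM in Du145-DtxR, against 58.5 and 55.4 CPM in Du145-P. The desaturase SCD was at 1923 and 1834 CPM, against 3004 and 2918 CPM in Du145-P, and the elongase ELOVL2 at 149 and 162 CPM, against 30.7 and 31.2 CPM. In the cholesterol list 7 of 23 were higher and 11 lower.

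Of 39 drug and retinoid metabolizing enzymes 21 were lower and 10 higher, 15 and 4 of them past the 2-fold limit (median -0.44). CYP1B1, which oxidizes steroids, was at 36.1 and 36.4 CPM in Du145-DtxR, against 110 and 104 CPM in Du145-P. CYP26B1, which degrades retinoic acid, was at 12.8 and 14.6 CPM, against 64.7 and 68.6 CPM in Du145-P. Its siControl levels were 42.2 to 45.2 CPM. The efflux transporters ABCC2 and ABCC3, members of the NRF2 list, were also lower, ABCC2 at 11.8 and 13.4 CPM in Du145-DtxR, against 76.7 and 70.2 CPM in Du145-P, and ABCC3 at 51.9 and 51.2 CPM, against 126 and 133 CPM. The cystine transporter SLC7A11 was higher, at 307 and 311 CPM, against 170 and 164 CPM in Du145-P, and the NRF2 list as a whole held 17 higher and 11 lower genes of 36. SLC7A11 was at 56.2 to 84.9 CPM in the siControl libraries, below Du145-P. Genes of autophagy and the lysosome were more often lower, 28 of 56 with 16 higher (median -0.16). The lysosomal protease CTSL, cathepsin L, led them, at 19.3 and 19.9 CPM in Du145-DtxR, against 187 and 168 CPM in Du145-P.

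On the surface, genes of antigen presentation were divided. CD274, the immune checkpoint ligand PD-L1, was at 18.5 and 21.4 CPM in Du145-DtxR, against 2.11 and 1.73 CPM in Du145-P. Of the 25 genes of the list 13 were higher and 7 lower, but the list holds ER chaperones such as CALR that were set aside. Channel genes were more often lower, with 34 of 61 potassium channel genes lower and 15 higher (median -0.42) and 19 of 32 calcium channel and calcium signaling genes lower and 7 higher (median -0.57). CACNA2D2, a calcium channel subunit, was at 1.69 and 1.7 CPM in Du145-DtxR, against 21.5 and 20.8 CPM in Du145-P, with siControl levels of 5.62 to 7.44 CPM, and CAMK1D, a calmodulin kinase, at 193 and 189 CPM, against 59.7 and 61.3 CPM. Of 234 solute carriers 97 were lower and 65 higher, 48 and 9 of them past the 2-fold limit.

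HOX genes differed by cluster. They encode homeodomain factors that keep a record of body position, and genes of a cluster lie side by side and share regulation. All 8 tested HOXB genes on chromosome 17 were higher (median 1.69), and their summed levels were 197 and 192 CPM in Du145-DtxR, against 60.9 and 65.1 CPM in Du145-P. HOXB6 was at 62.7 and 59.4 CPM, against 11.3 and 9.79 CPM in Du145-P (log2 fold change 2.53, SE 0.08, adjusted p = 2.51e-10), and HOXB9 at 57.3 and 57 CPM, against 14.6 and 16 CPM. Of 8 HOXC genes on chromosome 12, 6 were lower and 1 higher (median -2.11), HOXC10 being at 1.65 and 1.48 CPM in Du145-DtxR, against 19.4 and 18.6 CPM in Du145-P. HOXC10 was at 21.2 to 26.5 CPM in the siControl libraries, above Du145-P, whereas HOXB6 was at 76.2 to 87.8 and HOXB9 at 87.8 to 99.9 CPM. The higher one was HOXC8, named after its value was seen, at 6.98 and 5.8 CPM, against 3.64 and 4.68 CPM in Du145-P. Of 11 HOXA genes on chromosome 7, 6 were lower and none higher (median -0.79), and of 4 HOXD genes 3 were higher and 1 lower. The HOXB sum was 47 and 44.2 CPM in Du145-CbzR. Neighbouring HOX genes overlap, and reads in shared exons may be divided with error.

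**Figure D4:**
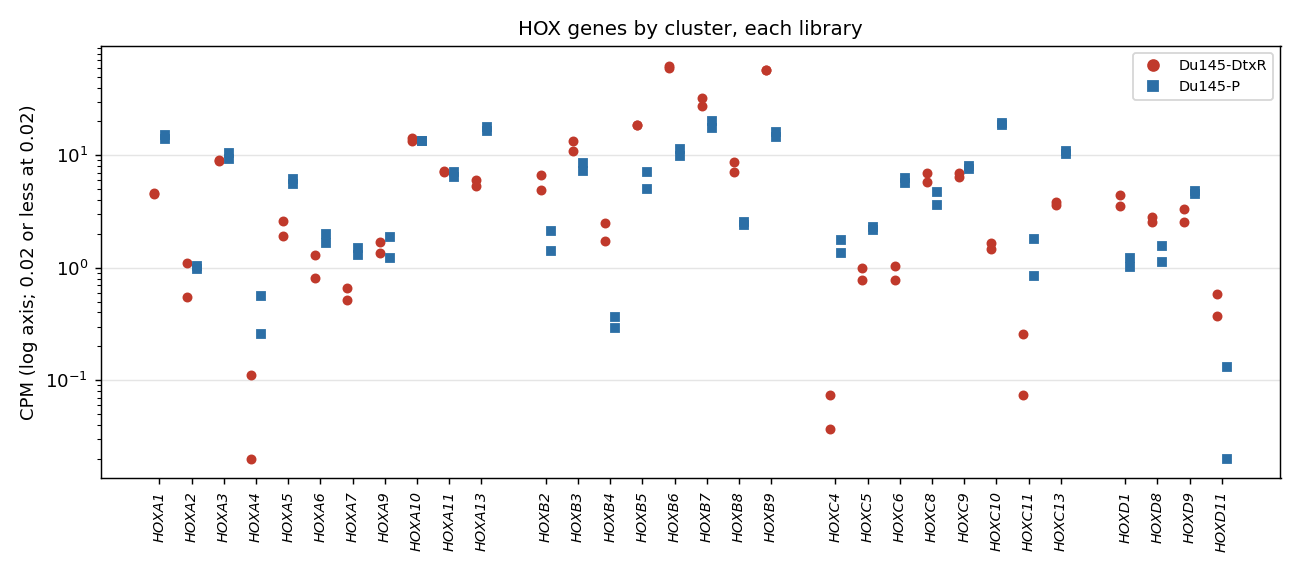
CPM (log axis) of the 31 tested HOX genes, grouped by cluster and ordered by number, with Du145-DtxR libraries as circles left of the Du145-P libraries as squares. All 8 HOXB genes are higher in Du145-DtxR, and 6 of 8 HOXC genes lower.

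Zinc finger genes named ZNF, many of them KRAB repressors in clusters on chromosome 19, made up 9 of the 61 genes lost at the limit of 1 CPM. Of 446 tested 154 were lower and 87 higher, against 32.0% and 31.1% of all genes, and 52 were past the 2-fold limit on the low side and 9 on the high side, 11.7% and 2.02%, against 13.8% and 6.62% of all genes. With 3 read-through genes counted that the list leaves out, 217 tested protein-coding ZNF genes lay on chromosome 19 and 232 on others. Of the 217, 35 were lower past the 2-fold limit, a smaller share than the 19.9% of all genes of that chromosome, while 16 were lower by more than 16-fold and 13 had no count in Du145-DtxR, against 2 and 0 of the 232. In Du145-P 1 of the 217 had no count. Of the 61 genes lost at the limit of 1 CPM, 12 lay on chromosome 19, 1.14% of the genes at or above that level there, against 0.406% over all chromosomes, and 9 of the 12 were ZNF genes. ZNF667 was at 0.0368 and 0 CPM in Du145-DtxR, against 4.77 and 4.94 CPM in Du145-P, and its antisense RNA ZNF667-AS1 at 0 and 0.0369 CPM, against 5.07 and 5.84 CPM. ZNF320 was at 0.0368 and 0.0369 CPM, against 6.59 and 5.44 CPM in Du145-P, and on another chromosome ZNF354C was at 0.147 and 0.0739 CPM, against 10.6 and 10.4 CPM. Silent and expressed genes alternated within a cluster. On the long arm of chromosome 19, ZNF577, ZNF649, ZNF613, ZNF888, ZNF816 and ZNF347, read in order after their values were seen, had no count in Du145-DtxR, while ZNF83 between them was at 74.8 CPM on average, against 39.7 CPM in Du145-P. ZNF genes share repeated finger sequences, so low counts of any of them may be moved between copies.

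Protocadherin genes were more often higher, 22 of 42 with 5 lower (median 0.90). The list holds the clustered protocadherins of a locus on chromosome 5, cell surface molecules that give neurons their identity, some of which share exons. It also holds non-clustered members such as PCDH1. PCDHB6 was at 17.3 and 15.4 CPM in Du145-DtxR, against 5.72 and 4.25 CPM in Du145-P, and PCDHB5 at 13.1 and 13.2 CPM, against 5.59 and 5.37 CPM. PCDHB5 was at 6.49 to 8.5 CPM in the siControl libraries, and the median of the list over Du145-P was 0.02, against 0.62 in Du145-DtxR on the log2(CPM + 0.5) scale. A filter at a mean of 1 CPM left 14 members higher. The delta protocadherin PCDH1 at the end of the same locus was lower, at 0.331 and 0.406 CPM, against 3.41 and 3.45 CPM in Du145-P. For PCDH1 the siControl libraries were at 5.92 to 6.73 CPM, above Du145-P.

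Differences also ran along chromosomes. When genes were put in coordinate order (GRCh38, GENCODE 44) and a running median of the log2 fold change was taken over 51 tested genes, 69 stretches had a median above 0.5 or below -0.5, and 18 did with wider windows. Of the 69 stretches 14, chosen for their length after the values were seen, covered at least 30 genes, 9 lower and 5 higher, and held 808 genes, 4.44% of those tested. The largest by gene number ran on chromosome 12 from LINC00938 to HOXC4 (45718046 to 54056030), where 104 of 151 genes were lower and 12 higher (median -0.65). On chromosome 14, 71 of 93 genes from CHD8 to COCH (21385194 to 30895065) were lower and 5 higher, and 46 of 71 genes from MIDEAS to GTF2A1-AS1 (73715122 to 81227694) were lower and 7 higher (median -0.72). On chromosome 7, 50 of 73 genes from TFAMP1 to PHF14 (1614590 to 11169623) were lower (median -0.68). The limits given are those of window centres, and a shift can run past them. The 25 genes before the chromosome 7 stretch had a median of -1.07 and the 25 after it -0.17. These flank medians were -0.75 and -0.1 for the first chromosome 14 stretch and -0.43 and -0.35 for the second. For the chromosome 12 stretch they were -0.16 and -0.18.

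The stretches were chosen on these same libraries, so a shift in both Du145-DtxR libraries is no separate support for them. Each Du145-P library is set against a mean that includes it, so the Du145-P values nearly mirror each other. Over genes at 1 CPM or more in Du145-P, the median log2 difference from the Du145-P mean in the first chromosome 14 stretch was -0.95 and -0.82 in the Du145-DtxR libraries, against -0.02 and 0.02 in the Du145-P libraries. In the chromosome 12 stretch it was -0.58 and -0.58 in Du145-DtxR, against -0.03 and 0.03 in Du145-P. Du145-CbzR stood near Du145-P in all 9 lower stretches, with medians no further than 0.17 from 0. Among the higher stretches, 36 of 58 genes on chromosome 6 from 132445867 to 145791973 were higher (median 0.76), 32 of 53 on chromosome 4 from LARP7 to SCLT1 (median 0.52), 22 of 37 on chromosome 3 from P2RY1 to IL12A (median 0.72) and 26 of 42 on chromosome 10 from PRKCQ-AS1 to MEIG1 (median 0.59). The fifth was the protocadherin locus, with a median of 0.97 over its genes but only 0.22 and 0.25 in the Du145-DtxR libraries over those at 1 CPM or more in Du145-P. In the stretches on chromosomes 4 and 10 Du145-CbzR was shifted in the same direction, with medians of 0.30 and 0.39. The 25 genes before and the 25 after these stretches were also shifted in Du145-DtxR. Their medians were 0.57 and 0.45 on chromosome 4 and 0.45 and 0.51 on chromosome 10. DNA copy number was not measured in these files, and its part in these stretches was not tested.

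**Figure D5:**
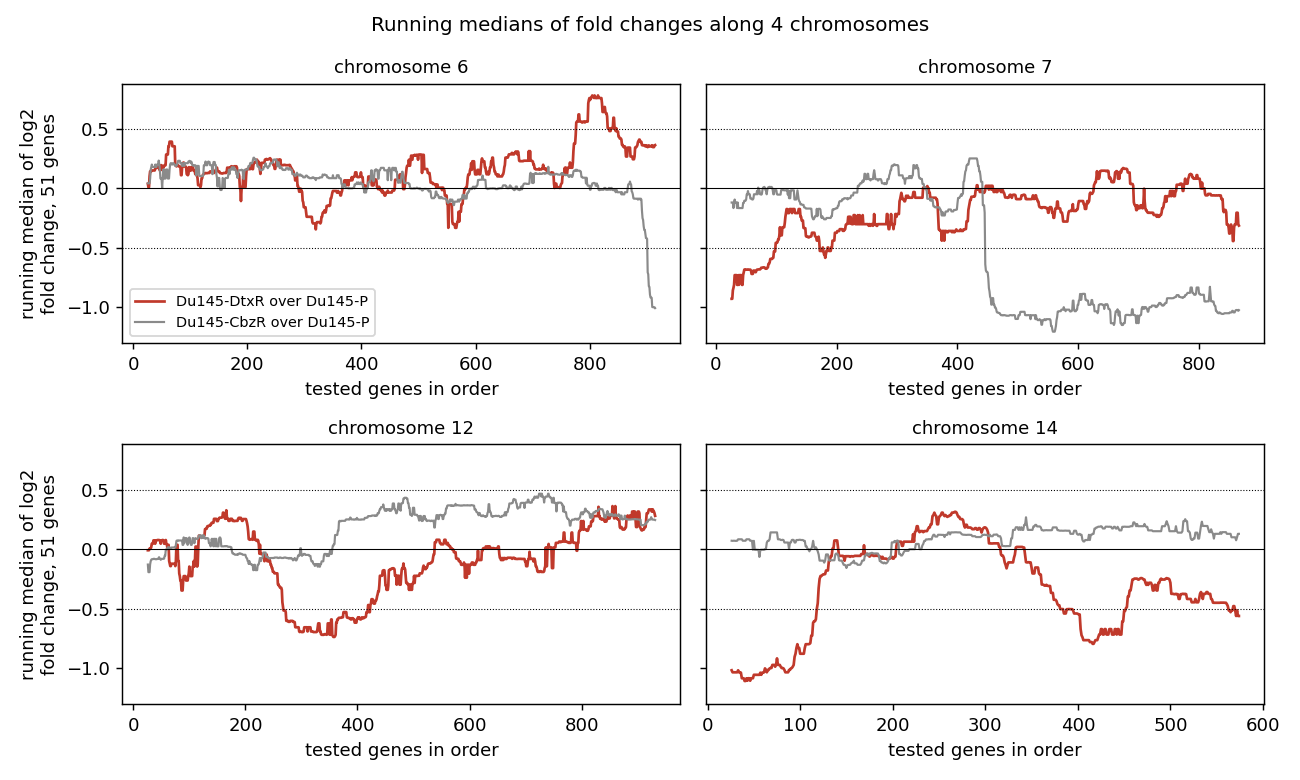
Running median over 51 tested genes of the log2 fold change along 4 chromosomes, in gene order, for Du145-DtxR over Du145-P (red) and Du145-CbzR over Du145-P (grey), with dotted lines at 0.5 and -0.5. Du145-DtxR is below -0.5 at the start and in the later part of chromosome 14 and in the middle of chromosome 12 where Du145-CbzR is not, and Du145-CbzR is near -1 on the second part of chromosome 7 where Du145-DtxR is not.

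TSNARE1 lies in a stretch of chromosome 8, and several other genes described above lie within these stretches. Of the 264 genes named by rule 21 did, 19 of them moving with their stretch. PSMB5 and SLC22A17 lie in the first chromosome 14 stretch, FOS and LTBP2 in the second, and HOXC10, TUBA1A and KRT81 in that of chromosome 12. The stretch from CWC25 to WIPF2 on chromosome 17, where 23 of 32 genes were lower (median -0.58), holds ERBB2, and TIMP2 lies in that from CYTH1 to BAIAP2-DT, where 26 of 33 were lower (median -0.79). SSR3, a translocon subunit at 1237 and 1246 CPM in Du145-DtxR, against 214 and 207 CPM in Du145-P, lies in the higher stretch on chromosome 3. KRT7 and PCDH1 went against their stretch.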

How the data were processed

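RNA was sequenced from 12 libraries of established Du145 lines. The authors mapped read pairs with STAR, on GENCODE transcripts of GRCh38, and used Salmon and tximport to obtain a value per gene. The versions are not given in the sources used here. The deposited tables are named for TPM but hold estimated counts, of which 58.4% of the values above 0 are whole in the resistance table. They were rounded, the PAR_Y rows were added to their X copies, and symbols and positions were taken from GENCODE 44.

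The 6 libraries of Du145-DtxR, Du145-P and Du145-CbzR entered 1 fit in edgeR 4.0.16 (R 4.3.3) with filterByExpr and TMM scaling. The quasi-likelihood test was two-sided, with Benjamini-Hochberg adjustment over all 18218 genes tested. The median log2 fold change of all genes was -0.02 with TMM and -0.01 with DESeq2 size factors. An SE is the fold change divided by the root of the F statistic, and is too small where counts are few. Scripts were tested on simulated data. The siControl table was normalized separately and was not tested against the other. Alternatives were DESeq2 1.42.0 and its size factors, other filters, only the 4 libraries compared, a replicate block and leaving out each library.

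The members and lists were chosen with earlier results of these data known. The genes named are, in each direction, the 20 largest fold changes at 5 CPM or more in the higher line, the 10 largest differences in CPM outside the mitochondrial genome, the 10 highest genes without a count in the other line, and up to 4 members of each of 52 lists with the smallest adjusted p, with members against their list where 3 or fewer were. Some of these were left out, and a few genes are not reported here. Members of the lists set aside and genes without a symbol were not named, except as members of a list described here. The libraries with BRPF1 silenced were not used.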

Additional observations from a re-analysis of the deposited data

Results flagged for a closer look

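For 9 of the genes with the largest fold differences, the change in Du145-DtxR was opposite in sign to that in Du145-CbzR, and edgeR's quasi-likelihood contrast of the resistant lines passed the test. Both changes are measured against the same Du145-P libraries. Between the resistant lines 63.0% of all genes passed an adjusted p of 0.05.

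The log2 difference of Du145-DtxR minus Du145-CbzR was 7.15 for ADGRV1 (adjusted p = 1.33e-10), 5.65 for FBXL13 (adjusted p = 1.07e-09), 7.59 for MMP16 (adjusted p = 2.32e-08) and 6.82 for CST6 (adjusted p = 3.17e-09). It was 6.59 for EFNB2 (adjusted p = 1.08e-08) and 5.33 for TNFRSF6B (adjusted p = 1.38e-09). These genes were higher than Du145-P in Du145-DtxR and lower than Du145-P in Du145-CbzR.

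ARMCX2 had no count in Du145-CbzR, so its fitted difference of 13.27 (adjusted p = 1.57e-11) is not a bound. At a floor of 3 counts over both Du145-CbzR libraries, ARMCX2 was at least 863-fold higher in Du145-DtxR.

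COL5A1, a minor fibrillar collagen, and BMP5 went the other way, below Du145-P in Du145-DtxR and above it in Du145-CbzR. The log2 difference was -13.16 for COL5A1 (adjusted p = 3.37e-11), whose Du145-DtxR libraries had no count, and -10.74 for BMP5 (adjusted p = 6.41e-13).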

How the results depend on the processing

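Over the alternatives, including leaving out each library, the 264 named genes kept their direction in all 2640 values, and 9 values, all of PSMB9 or SLC39A4, lost the test. Without Du145-P replicate 2 the log2 fold change of SLC39A4 was -0.35 with an adjusted p of 0.184 in edgeR. Counts of members called in the lists stayed within 1.5 times in 1021 of 1040 values. Genes past the 2-fold limit numbered 1127 to 1177 higher and 2338 to 2532 lower when 1 library was left out, and 1053 higher and 2193 lower in DESeq2. Genes lost in Du145-DtxR numbered 12, but 19 when fewer than 3 counts over both libraries were allowed and 61 at a limit of 1 CPM. Genes gained numbered 1, then 2 and 7. Stretches of neighbouring genes numbered 69, and 18 with the wider windows.

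Libraries with the same replicate number did not deviate together, with correlations of -0.021 between Du145-DtxR and Du145-P, 0.085 between Du145-CbzR and Du145-P and 0.032 between Du145-CbzR and Du145-DtxR. With the replicate block, 1191 genes were higher and 2470 lower past the 2-fold limit, and 5572 higher and 5727 lower by adjusted p alone.

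With 2 libraries a line, the spread rests on few libraries and a call describes these cultures. Genes under 1 CPM rest on few counts, and single genes there are imprecise. Copy number, methylation and protein were not measured in these files.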
